A study of Mus musculus with 10 samples.

Results

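Midbrain dopamine neurons are recognised by a small set of genes, and 9 of them are described here in mouse hippocampus: Th, Ddc, Slc18a2, Slc6a3, Pitx3, Foxa2, En1, En2 and Ret. They were taken by name from the 41174 non-control probes of an Agilent array, which stood for 27342 gene names, and 11 probes belonged to them. The members were chosen by the unevenness of their signals among the control animals, known from an earlier look at these arrays. The control values, and the comparison with controls that rests on them, are therefore given as a description. Nothing is read from a test of the members. Each group held 5 adult animals of ICR, an outbred mouse stock, all labelled male, with 1 array per animal. In the group called NC, dams had been given corn oil by mouth in pregnancy. In the group called HE, dams had been given estradiol valerate, an ester that the body converts to estradiol, in the same oil at 100 µg/kg/day between E5.5 and E11.5 of gestation. The labels name no litter and do not say how the hippocampus was dissected, so that the values measure the spread between these animals and not between dams.

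Dopamine is made from tyrosine in 2 enzymatic steps, packed into vesicles, released, and taken back up by a transporter at the cell surface. The best known cell bodies that make it lie in the ventral midbrain, in the substantia nigra and the ventral tegmental area, and some of their axons reach the hippocampus. Messenger RNA is mostly held in cell bodies, so that the hippocampus is a target of these neurons and not their home. Th, Ddc, Slc18a2 and Slc6a3 encode the working parts of such a neuron, Pitx3, Foxa2, En1 and En2 encode transcription factors that form and maintain it, and Ret encodes the receptor that passes on the survival signal of GDNF. Several of these genes also serve elsewhere: Th and Slc18a2 in other monoamine neurons, Ddc also in peripheral organs, and Foxa2 also in liver. In tissue RNA, fewer cells of a type and less RNA per cell cannot be told apart.

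The probes of the first enzymes show what the arrays read. They are printed because Th is read by 10 spots of 1 probe on each array, and because the 2 Ddc probes lie far apart in the gene. Positions are those the array files give on mm9, with each probe written 5′ to 3′.
Th, probe A_51_P486223, chr7:150079917-150079976, minus strand: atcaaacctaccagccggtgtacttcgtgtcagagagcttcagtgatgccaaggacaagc
Ddc, probe A_52_P470150, chr11:11715320-11715379, minus strand: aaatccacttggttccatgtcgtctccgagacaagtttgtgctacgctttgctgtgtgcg
Ddc, probe A_52_P63905, chr11:11776262-11776321, minus strand: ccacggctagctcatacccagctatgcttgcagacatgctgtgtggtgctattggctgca
The other members were read at chr13:73715973-73716032 (Slc6a3), chr19:59369846-59369906 and chr19:59370102-59370161 (Slc18a2), chr19:46210179-46210238 (Pitx3), chr2:147868698-147868757 (Foxa2), chr1:122504067-122504126 (En1), chr5:28498468-28498528 (En2) and chr6:118103903-118103962 (Ret). The exon of each probe was not looked up, since no annotation of that build was used here.

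Levels are given below as log2 of the processed signal relative to the 75th percentile of the same array, so that a level of 0 is that percentile and a step of 1 is a doubling. Levels of different probes are not compared, because probes differ in brightness. The 75th percentile lay between 898 and 1277 units of intensity, and the scanner software called 70.3% to 78.8% of probes well above background. The arrays were printed on 3 slides: NC 1 to NC 4 lay on slide 1, NC 5, HE 1 and HE 2 on slide 2, and HE 3 to HE 5 on slide 3. The sex label did not match the signal on 7 of 10 arrays. Xist, an RNA of the inactive X chromosome, stood between 3.21 and 4.45 on 7 arrays, those of slide 1 together with HE 1, HE 2 and HE 3. It stood between -7.25 and -4.51 on NC 5, HE 4 and HE 5, where the Y-linked gene Ddx3y stood between 1.09 and 1.39. Of the 7 arrays with high Xist, Ddx3y was -5.51 on NC 2 and -9.31 to -8.13 on the rest. Whether labels or samples were exchanged was not tested. Of 14 hippocampal marker genes, 12 to 14 were well above background on each array, Iyd being the least often seen, and their summed level ran from 5.42 to 5.82 in NC and from 5.68 to 6.20 in HE.

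Th, tyrosine hydroxylase, catalyses the first and rate-limiting step of dopamine synthesis. Its level was -3.30, 1.36, -3.16, 1.20 and -1.47 on NC 1 to NC 5, and -3.22, -3.62, -2.15, -3.50 and -2.59 on HE 1 to HE 5. NC 2 and NC 4 stood far above all other arrays, NC 5 came next, and NC 1 and NC 3 lay among the HE arrays, so that the groups overlapped. NC 2 was 25.2-fold above NC 1 and 7.09-fold above NC 5, but only 1.12-fold above NC 4. The 10 spots of the probe differed among themselves by an SD of 0.045 to 0.081 on any array, against an SD of 2.26 between the NC animals.

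Ddc, aromatic L-amino acid decarboxylase, carries out the second step, from L-DOPA to dopamine, and also makes serotonin. Its brighter probe stood at -0.76, 3.18, 0.19, 2.94 and 1.32 on NC 1 to NC 5, and at -0.80, -0.92, -0.79, -0.51 and -0.47 on HE 1 to HE 5. NC 2, NC 4, NC 5 and NC 3 were above every HE array, and NC 1 lay among them. The dimmer probe, 60882 bases away, read -5.87, -1.51, -4.67, -0.95 and -3.14 in NC and -5.02, -4.98, -5.02, -4.68 and -4.20 in HE. It put NC 4 before NC 2, and NC 1 below every HE array. Across the 10 arrays the 2 probes had a Pearson r of 0.963, a description of probes that share the same RNA samples.

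Slc18a2, the vesicular monoamine transporter VMAT2, loads dopamine and other monoamines into vesicles. Its brighter probe stood at -1.44, 2.20, -1.28, 1.499 and 0.45 on NC 1 to NC 5, and between -1.42 and -0.97 on the 5 HE arrays. The order within NC was that of Th, with NC 2 at 12.5-fold the signal of NC 1, and NC 1 and NC 3 again within or just beside the HE range. The other probe, 195 bases away, gave -3.03, 0.85, -2.82, 0.65 and -0.79 in NC and -2.98 to -2.26 in HE, with r = 0.994 between the probes over the 10 arrays.

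Slc6a3, the dopamine transporter DAT, takes released dopamine back into the cell and is the most selective of the set for midbrain dopamine neurons. Its level was -2.37, 4.91, -2.35, 4.65 and 0.36 on NC 1 to NC 5, and -3.73, -4.72, -3.72, -4.28 and -3.17 on HE 1 to HE 5. NC 2 was 156-fold above NC 1, and the probe on NC 2 and NC 4 was brighter than the 75th percentile by more than 4 log2 units. All 5 NC arrays were above all 5 HE arrays, NC 1 and NC 3 by the least. This separation was the case for 10.9% of the 20065 genes tested.

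**Figure D1:**
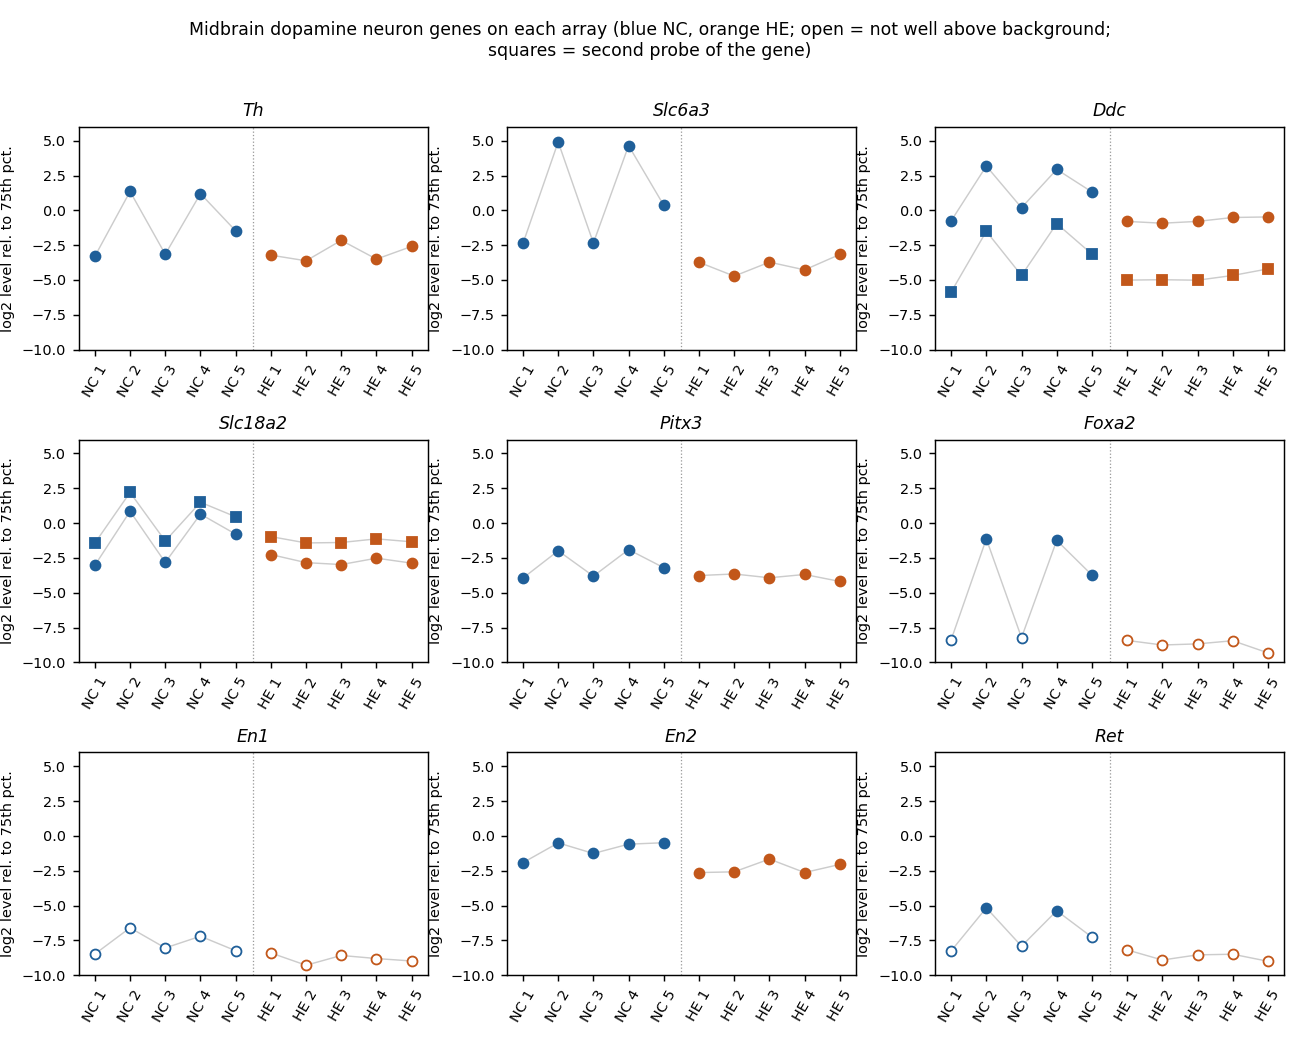
Level of each of the 9 genes on each of the 10 arrays, as log2 relative to the array's 75th percentile (vertical axis, the same range in each panel). Blue marks are NC, orange marks are HE, open marks are not well above background, and squares are the second probe of a gene; the grey lines only guide the eye. NC 2 and NC 4 stand highest in most panels, NC 5 lies between, and NC 1 and NC 3 lie near the HE arrays.

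Pitx3 encodes a homeodomain factor needed for the survival of substantia nigra neurons, and is active in the lens and muscle as well. It was dim but measured on all 10 arrays, at -3.95, -1.99, -3.81, -1.90 and -3.20 on NC 1 to NC 5 and between -4.19 and -3.65 in HE. NC 2, NC 4 and NC 5 were above all HE arrays, and NC 2 was 3.89-fold above NC 1, a narrower range than those of Th and Slc6a3.

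Foxa2 encodes a forkhead factor of the floor plate, from which these neurons arise, and stays on in the adult neurons. It was well above background on 3 arrays only, NC 2 (-1.13), NC 4 (-1.24) and NC 5 (-3.73). On NC 1 and NC 3 (-8.38 and -8.22) and on the 5 HE arrays (-9.32 to -8.43) it was not well above background. The order of those 7 values has no meaning. For a group in which no array measured the probe, a difference is only a bound: on each array the probe is set to the dimmest signal called well above background, or to its own if that is higher. By that measure Foxa2 was at least 4.89-fold lower in HE on the group mean, of which 3 of 5 NC arrays had measured it. Its 10 spots had an SD of 0.050 to 0.121 on the arrays that measured it.

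En1 and En2 encode engrailed homeodomain factors of the midbrain-hindbrain border that midbrain dopamine neurons keep into adult life, and En2 is also active in the cerebellum. En1 was not well above background on any of the 10 arrays, with readings of -8.48 to -6.60 in NC and -9.29 to -8.40 in HE. En2 was measured on all arrays, at -1.92, -0.50, -1.26, -0.59 and -0.49 on NC 1 to NC 5, and at -2.63, -2.58, -1.66, -2.63 and -2.05 on HE 1 to HE 5. It departed from the order of the other genes, since NC 5 was level with NC 2 and NC 4. NC 3 stood above every HE array, as for Slc6a3 and the brighter Ddc probe. Only NC 1 lay inside the HE range. The spots of En2 agreed to an SD of 0.039 to 0.067.

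Ret was well above background on NC 2 (-5.17) and NC 4 (-5.38) alone. NC 5, at -7.27, and the other 7 arrays, at -9.004 to -7.92, were not. With 2 arrays of NC it did not enter the comparison, and the bound on the group mean was at least 1.02-fold lower in HE. Its spots were noisier than those of Foxa2, with an SD of 0.214 to 0.386.

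Set against the HE mean, NC 2 and NC 4 stood apart by amounts that differed much between genes. NC 2 was above it by 8.84 for Slc6a3, 4.37 for Th, 3.88 for the brighter Ddc probe, 3.46 for the brighter Slc18a2 probe, 1.86 for Pitx3 and 1.81 for En2, in log2 units. NC 4 was above it by 8.57, 4.21, 3.64, 2.75, 1.94 and 1.72 for the same probes. NC 5 was above it by 4.28, 1.55, 2.02, 1.71, 0.64 and 1.82. On NC 1 the same differences were 1.55, -0.28, -0.06, -0.19, -0.10 and 0.39, and on NC 3 they were 1.58, -0.14, 0.89, -0.03, 0.04 and 1.05. Slc6a3 and En2 were thus above the HE mean on all 5 NC arrays, while Th, Pitx3 and the brighter Slc18a2 probe on NC 1 and NC 3 lay within 0.28 of it.

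**Figure D2:**
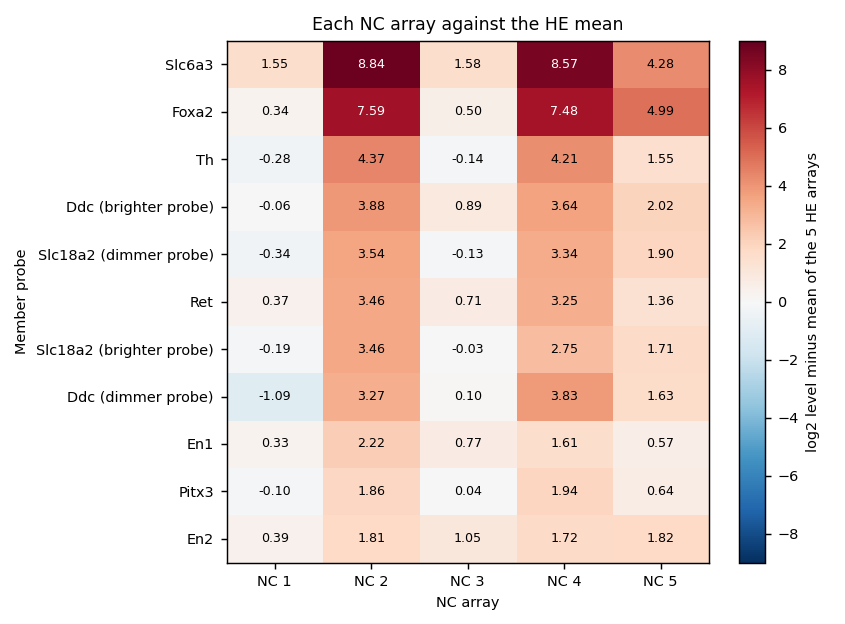
Difference between each NC array (columns) and the mean of the 5 HE arrays, in log2 units, for each of the 11 member probes (rows, ordered by NC 2). Red is above the HE mean and blue below; Foxa2, Ret and En1 include readings not well above background. The columns NC 2 and NC 4 are red throughout, from 1.61 for En1 on NC 4 to 8.84 for Slc6a3 on NC 2, and the highest values of NC 1 and NC 3 are those of Slc6a3, 1.55 and 1.58.

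Of the 9 genes, 7 entered the comparison of HE with NC, for which a probe had to be well above background on at least 3 of 5 arrays of a group. En1 and Ret did not enter. The genes that entered through NC alone, here Foxa2, had to be lower in HE. In the fit of limma across all genes, the log2 difference of HE from NC was -4.96 ± 1.45 (SE, n = 5 and 5) for Slc6a3, -2.07 ± 0.69 for Ddc, -1.94 ± 0.94 for Th, -1.54 ± 0.66 for Slc18a2, -1.36 ± 0.31 for En2 and -0.87 ± 0.40 for Pitx3. Foxa2 has only the bound given above; its fitted -4.18 ± 1.44 is made in part of background readings. The median over these 7 was -1.94, with Foxa2 at its fitted value or at its bound, and over all genes tested it was -0.06. An adjusted p under 0.05 was reached by 2 of the 7, Slc6a3 and En2, a count given only to stand beside that of all genes; over all 20065 genes 20.4% passed, 13.9% lower and 6.48% higher. That is 1301 higher and 2787 lower, against 1900 and 2399 after quantile normalization and 1787 and 7092 after normexp background correction, which moved the median of all genes to -0.29. Since the NC values chose these genes, nothing is read from the members' count.

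Each of the 7 genes had a wider spread between animals in NC than in HE, as did 12806 of the 20065 genes. The SD over 5 NC arrays was 3.59 for Slc6a3, 3.59 for Foxa2, 2.26 for Th, 1.71 for Ddc, 1.63 for Slc18a2, 0.98 for Pitx3 and 0.63 for En2. The median over all genes tested was 0.27. The rule chose the genes on these values. It did not use the HE arrays, where the SD was 0.59 for Slc6a3, 0.36 for Foxa2, 0.63 for Th, 0.20 for Ddc, 0.20 for Slc18a2, 0.22 for Pitx3 and 0.44 for En2, against a median of 0.21 over all genes. Within HE, Ddc and Slc18a2 stood at the 47.2 and 47.0 percentile of all genes by SD, Pitx3 at 51.5, En2 at 78.6, Slc6a3 at 88.6 and Th at 90.1. The value for Foxa2 is that of background readings. The order of NC 2, NC 4 and NC 5 above NC 1, NC 3 and every HE array was shown by 7 of the 7 members tested, and by 5.96% of all genes; the rule used these NC values too.

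The size of the drop depended on which arrays were counted, as it must for genes chosen by their NC values; the 6 genes measured in both groups were below 0 each time. Without NC 2 and NC 4, whose levels were known beforehand, the differences of these 6 ran from -2.47 to -0.19, and 0 of 7 members passed in limma (3 at an unadjusted p under 0.05). Without NC 1, NC 2 and NC 4 they ran from -2.93 to -0.34, and 2 of 7 passed. Among the 3 arrays of slide 2, where NC 5 is the only control, the differences ran from -4.58 to -0.51; 0 of the 20065 genes passed in that comparison, so that no count is read from it. NC 5 differs there from HE 1 and HE 2 also in the Xist and Ddx3y pattern, so that group and this pattern cannot be told apart on that slide. A fit of all arrays with slide as a block gives the same differences by construction. On the 7 arrays with high Xist alone the differences ran from -5.27 to -0.87 and 0 of 7 passed (2 unadjusted), and among these no slide held both groups. After normexp correction, by contrast, 7 of 7 passed. With single arrays left out, the difference of En2 ran from -1.60 to -1.24 and that of Slc6a3 from -5.82, without NC 1, to -3.99, without NC 2. The count of 2 became 5 without NC 1, 4 without NC 3 and 1 without any other single array. All counts of members in this paragraph rest on the values that chose the genes, so nothing is read from them.

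Markers of neighbouring cell types, read on the same arrays, did not all follow the dopamine genes. Counts of these lists stand beside 13.9% of all genes lower and 6.48% higher, and rest on groups that lay mostly on separate slides. The summed level of the 9 members was 0.67, 5.58, 1.24, 5.29 and 2.68 on NC 1 to NC 5 and 0.35 to 0.76 in HE. For the 6 genes listed for serotonin neurons of the raphe it was -1.81, 2.09, -2.59, -0.82 and 0.66, against -2.64 to -2.39 in HE, and 2 of 6 fell. Those 2 were Gata2 and Gata3, transcription factors that GABA neurons of the midbrain share. Gata3 entered through NC alone, with 0 of 5 HE arrays well above background, and had to be lower. Slc6a4, the serotonin transporter, was 1.04 on NC 2 and -1.45 on NC 5. On NC 4, where Slc6a3 was near its highest, Slc6a4 read -6.49, not well above background. Tph2, which begins serotonin synthesis, was likewise 0.35 on NC 2, -1.77 on NC 5 and -5.20 on NC 4; it was singled out after its values were seen. The raised dopamine genes of NC 4 therefore came without raised Slc6a4 or Tph2, while on NC 2 and NC 5 they came together. On NC 1, the lowest of NC for the members, Slc6a4 was -4.78, above its HE readings (-8.01 to -6.34). Only 2 of 5 HE arrays were well above background for Slc6a4, which entered through NC alone. Tph2 was -4.03 on NC 1, within its HE range (-5.16 to -3.92).

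For noradrenaline neurons, which share Th, Ddc and Slc18a2 with dopamine neurons, 0 of 3 tested genes passed in limma at an adjusted p under 0.05, and 0 at an unadjusted one. Dbh, which turns dopamine into noradrenaline, was between -6.07 and -4.78 in NC and between -5.81 and -5.22 in HE, and its value on NC 2 (-5.23) was inside the HE range. Slc6a2, the noradrenaline transporter, was well above background on NC 5 alone (-5.11), a gene named after its values were seen. None of the 5 genes was highest on NC 4. Midbrain GABA neurons gave a summed level of -0.79, 1.29, -0.94, 0.56 and 1.37 on NC 1 to NC 5 and of -1.553 to -0.996 in HE. In this list 3 of 7 tested genes fell, among them again Gata3, which entered through NC alone and had to be lower. Tal1, a factor that directs midbrain precursors to a GABA fate, differed by -2.63 ± 0.57 (SE, n = 5 and 5; limma adjusted p = 0.0156) and by -3.90 with slide as a block (adjusted p = 0.103). It stood at -2.29, 0.47, -2.22, -0.40 and 0.42 on NC 1 to NC 5. Gata3 was -1.10, -1.63 and -1.21 on NC 2, NC 4 and NC 5 and -5.04 and -5.13 on NC 1 and NC 3, and lost its call with slide as a block (adjusted p = 0.0815). For both genes NC 2, NC 4 and NC 5 were above NC 1 and NC 3, as for the dopamine genes, but NC 5 was above NC 4.

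Markers from farther away had other orders. The summed level of 12 thalamus and habenula genes was 5.35, 5.001, 5.99, 5.74 and 6.12 on NC 1 to NC 5 and 3.43 to 5.19 in HE, and 9 of 12 fell. Of these 9, Shox2 entered through NC alone, with 1 of 5 HE arrays well above background, and had to be lower. NC 2, the array with the most Slc6a3, was the lowest of NC for this list, and NC 3, with little Slc6a3, was the second highest. For 9 liver genes the summed level was 2.51, 2.35, -0.98, 1.73 and -0.32 in NC and -1.86 to -1.24 in HE, with 5 of 9 lower. Of these 5, Fgg, Apoa1 and Apoa2 (0 of 5 HE arrays well above background) and Ambp (1 of 5) entered through NC alone. Such genes had to be lower. NC 1 was the highest array for the liver genes, and of NC the lowest for the members. Of 10 tested hypothalamus genes 2 fell, and the list's summed level was 3.45, 5.04, 4.78, 4.42 and 4.59 in NC and 2.45 to 4.17 in HE. Of 13 tested hippocampus genes 2 rose and 0 fell. With slide as a block 0 of 6 serotonin, 0 of 7 midbrain GABA, 0 of 12 thalamic and 0 of 9 liver genes passed in limma (3, 5, 9 and 1 at an unadjusted p under 0.05), 1 of 10 hypothalamus genes fell and 1 of 13 hippocampus genes rose. Without NC 2 and NC 4, 7 of 12 thalamic genes fell, as did 1 each of the serotonin, midbrain GABA and liver genes. The part of these other cell types in the levels of the 9 genes was not tested.

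**Figure D3:**
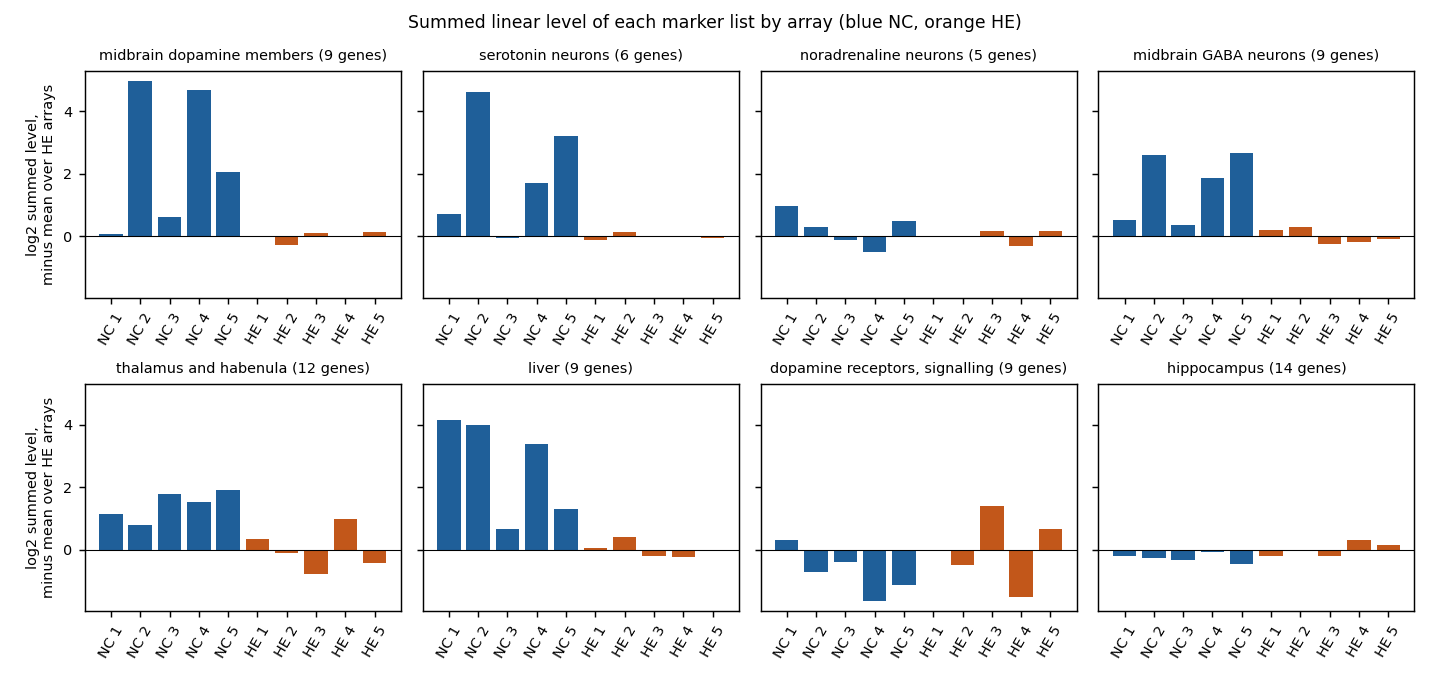
Log2 of the summed linear level of each marker list on each array, less the mean of that value over the 5 HE arrays (bars from 0). Blue bars are NC and orange bars HE; the number of genes summed is given above each panel. The members peak on NC 2 and NC 4, the serotonin list on NC 2 and NC 5, the liver list on NC 1, NC 2 and NC 4, and the thalamic list is above 0 on all NC arrays.

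Beyond the members, 48 genes of dopamine biology were listed in 4 sets, and 45 of them entered the comparison. By limma's adjusted p, 2 rose, 8 fell and 35 did not pass, with a median difference of -0.04. Over all genes the shares were 6.48% higher and 13.9% lower. The count of 10 depended on the arrays used. It was 15 without NC 1, 2 without NC 2, 3 without NC 5 or HE 1, 4 without HE 2, and 5 without HE 3, HE 4 or HE 5. Without NC 2 and NC 4 together 1 passed, Slc17a6, which was also the 1 that passed on the high-Xist arrays. With slide as a block 1 passed, Maoa, and after normexp correction 19 did. The order of NC 2, NC 4 and NC 5 above NC 1, NC 3 and every HE array was shown by 5.96% of all genes. It was shown by 6 of 19 tested regulators and markers, and by 4 of 11 genes of cofactor synthesis and breakdown. None of it was seen in the GDNF family (0 of 6) or in receptors and their signalling (0 of 9). The adjusted p-values below are those of limma on all 10 arrays.

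Among 19 tested regulators and markers of dopamine neurons, 3 fell and 1 rose. Aldh1a1, a retinaldehyde and dopamine-aldehyde dehydrogenase of the ventral substantia nigra, was 1.84, 4.08, 2.29, 4.28 and 3.62 on NC 1 to NC 5 and 1.25 to 1.76 in HE, a difference of -1.73 ± 0.45 (SE; adjusted p = 0.0269). NC 2, NC 4 and NC 5 were again the highest, yet NC 1 was above every HE array too. Its call was lost (-1.67 to -1.51) when any of NC 2, NC 5, HE 1 and HE 3 was left out. Foxa1, the forkhead partner of Foxa2, was -4.33, -2.97, -4.67, -2.65 and -3.51 in NC and -6.15 to -4.72 in HE (-1.80 ± 0.42, adjusted p = 0.0199), and did not pass without NC 2 (-1.63). Slc17a6, the vesicular glutamate transporter VGLUT2, carried by some of these neurons but also by thalamic and other glutamate neurons, fell most, by 2.30 ± 0.43 (adjusted p = 0.0114). It was highest on NC 5 (4.95) and lower on NC 2 and NC 4 (3.91 and 3.84), unlike Th, Ddc, Slc18a2 and Slc6a3. Calb1, calbindin, which marks the dorsal tier of dopamine neurons and also hippocampal granule and CA1 cells, rose by 0.63 ± 0.17 (adjusted p = 0.0288) and every HE array stood above every NC array, as for 5.56% of all genes. Leaving out NC 2, NC 5 or HE 5 ended its call (0.59 to 0.65), and with slide and the Xist pattern both in the fit its difference was -0.10.

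Other genes of this set did not pass. Nr4a2, the nuclear receptor Nurr1 that switches on Th and Slc6a3 in developing neurons, was 2.91, 2.67, 2.63, 3.15 and 0.95 on NC 1 to NC 5 and 1.94 to 2.65 in HE, with NC 4 the highest and NC 5 the lowest of the 10 arrays, and NC 2 just above the HE range. It is also active in cortical and hippocampal neurons. Lmx1a, a determinant of the dopamine fate, was not well above background on any array, and Lmx1b differed by -0.11 ± 0.27. Chrna6, a nicotinic receptor subunit of dopamine terminals and cell bodies, was -3.67, -3.08, -4.60, -2.52 and -3.62 in NC and -4.61 to -4.16 in HE. Its highest arrays were NC 4 and NC 2, and the difference was -0.87 ± 0.32 (adjusted p = 0.0824).

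The cofactor of tyrosine hydroxylase, tetrahydrobiopterin, is made and recycled by a short series of enzymes, and with the enzymes of dopamine breakdown these gave 4 lower and 0 higher of 11 tested. Gch1, GTP cyclohydrolase, begins the synthesis and limits it. It was -5.44, -2.09, -5.69, -2.70 and -3.85 on NC 1 to NC 5 and -6.63 to -5.19 in HE, with NC 2, NC 4 and NC 5 highest as for Th, and did not pass (-1.81 ± 0.68, adjusted p = 0.0825). Gchfr, its feedback regulator, fell by 1.44 ± 0.44 (adjusted p = 0.0439) and was 0.93 on NC 2 but -0.93 on NC 4. Pcbd1, which helps to recycle the cofactor, fell by 1.10 ± 0.33 (adjusted p = 0.0416) and was highest on NC 5 (3.05). Qdpr, the reductase that completes recycling, fell by 0.50 ± 0.15 (adjusted p = 0.0406). Pts and Spr, the middle and last steps of synthesis, differed by 0.08 ± 0.14 and -0.05 ± 0.13. Of the breakdown enzymes, Maoa fell by 0.50 ± 0.14 (adjusted p = 0.0321), with all 5 HE arrays below all NC arrays, while Maob differed by -0.37 ± 0.16 and did not pass. The calls of Gchfr, Pcbd1 and Qdpr lay near the threshold of 0.05 and were mostly lost when 1 array was left out. Qdpr passed only without NC 1 (-0.54 to -0.41 otherwise). Pcbd1 passed only without NC 1 or HE 4 (-1.15 to -0.92 otherwise), and Gchfr only without NC 1, NC 2 or NC 3 (-1.51 to -1.36 otherwise). The call of Maoa was lost (-0.52 to -0.48) when NC 2 or any HE array except HE 5 was left out.

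Ret is switched on by GDNF and its relatives together with GFRα co-receptors, and 6 of 8 such genes entered. Nrtn, the ligand neurturin, fell by 0.57 ± 0.15 (adjusted p = 0.0303). Gfra2, the co-receptor that neurturin prefers, rose by 0.91 ± 0.24 (adjusted p = 0.0277) and turned to -0.26 after normexp correction. Leaving out NC 2, NC 5 or one of HE 1, HE 2 and HE 4 ended the call of Gfra2 (0.82 to 0.96), and Nrtn passed only without NC 1, NC 4 or HE 3 (-0.58 to -0.50 otherwise). Gdnf itself differed by -0.33 ± 0.43, and Gfra1, its own co-receptor, by -0.04 ± 0.20, with its 2 probes opposite in sign. On NC 2 and NC 4, the arrays that measured Ret, Gfra1 was -0.38 and -0.68, within its HE range of -1.24 to -0.30.

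For dopamine receptors and their signalling, 0 of 9 genes passed in limma at an adjusted p under 0.05. At an unadjusted p under 0.05, 0 passed as well (methods other than limma were not run), and their median difference was 0.65. Drd1 was 1.91, 1.21, 1.35, -0.41 and 0.33 on NC 1 to NC 5 and 1.51, 1.08, 3.102, -0.31 and 2.34 on HE 1 to HE 5. Drd2 was 1.27, 0.08, 0.31, -0.35 and -0.52 in NC and 0.94, 0.21, 2.42, -1.05 and 1.51 in HE. HE 3 was highest for both and HE 4 or NC 4 lowest, so that the receptor genes did not follow the transporter and the synthesis enzymes over the arrays. Drd3, Drd4 and Drd5 were dim, with differences of 0.42 ± 0.32, 0.03 ± 0.42 and 0.09 ± 0.38. After normexp correction they turned to -0.91, -1.06 and -0.77. With slide as a block they were 0.18, -1.52 and -0.58. Ppp1r1b, which encodes DARPP-32, a phosphatase inhibitor regulated through dopamine receptors, had the largest difference of the set, 1.23 ± 0.60 (adjusted p = 0.162).

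**Figure D4:**
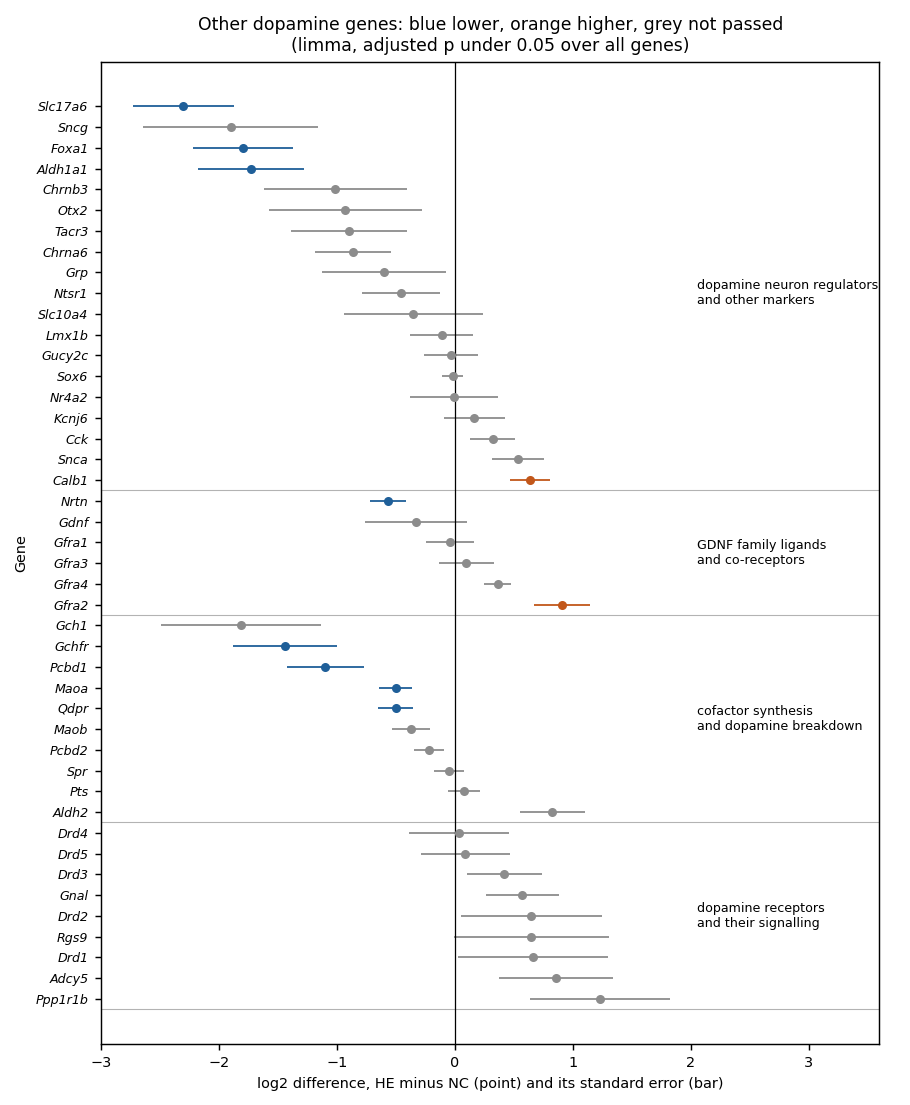
Log2 difference of HE from NC (points) with its standard error (bars) for genes of 4 lists of dopamine biology that entered the comparison and are not members, 5 arrays per group. Blue points fell, orange points rose and grey points did not pass limma's adjusted p under 0.05 over all genes. The receptor genes lie at or above 0, and the lowest point is Slc17a6 at -2.30.

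All 20065 genes were searched for the patterns most like the mean standardized profile of the 7 members that entered, by Pearson r over the 10 arrays. Foxa2, well above background on 3 of the 10 arrays, put its background readings into that profile too. The search left 55 genes above 0.9, members included. Such a value has no test here, and NC 2 and NC 4 were the highest arrays of the profile (1.73 and 1.60, in SD units). Among genes with an ordinary symbol, members aside, the highest were Coa3 (0.970), a cytochrome oxidase assembly factor, and Aldh1a1 (0.963). Slc2a4 (0.960), the insulin-responsive glucose transporter, Ipo8 (0.951), an importin, and Gch1 (0.950) came next. Alox8, Immt, Pbrm1, Kctd9 and Hmbox1 followed at 0.944 to 0.940. With NC 2 and NC 4 left out, r was 0.930 for Aldh1a1, 0.762 for Gch1 and 0.974 for Immt, a mitochondrial inner membrane protein. A high r says nothing of size: Coa3 moved only between 5.22 and 5.55 over the 10 arrays, and Slc2a4 between -3.11 and -0.82. Among the members, r with the profile they belong to ran from 0.877 for En2 to 0.992 for Ddc.

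The members were also compared by the sequence before their start sites, because members moved together on the arrays. RefSeq start sites (GRCm38.p6) gave 10 windows for 7 of the 9 genes, each with 250 bases before and 50 after the start; En2 and Ret were not among them. The cyclic AMP response element, TGACGTCA, which reads the same on both strands, was in the windows of 2 genes, Th and Slc18a2, and in 1.79% of all 32851 windows. Capitals mark it in the flanking bases printed here, 5′ to 3′ on the gene's strand.
Th, chr7:142900022-142900051, minus strand: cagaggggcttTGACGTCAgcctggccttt
Slc18a2, chr19:59260863-59260892, plus strand: agcgctgtccgTGACGTCAgagccggactg
In Th the element covered bases -45 to -38 before the start, and in Slc18a2 it lay across the start, from base -4 to base 4. The monomer site of Nr4a2, AAAGGTCA, was found on the opposite strand of 1 Ddc window, at bases -73 to -66, overlapping a TATAAA at -68 to -63; these letters were in 1.51% and 13.6% of all windows. TATAAA was also in 1 Foxa2 window. The forkhead letters TGTTTAC and the bicoid-type letters TAATCC that Pitx3 and Otx2 can bind were in none of the 10 windows, against 3.65% and 7.06% of all. A match describes letters only, and its absence says nothing of the factor.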

How the data were processed

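Per the labels' protocols, total RNA was labelled with Cy3 by a 1-colour Agilent kit; per the submitters' processing notes, spots were quantified with Feature Extraction 10.7 by Agilent. The deposited scanner files hold linear intensity, background-subtracted within each array, per the file headers. The authors also deposited a table of log2 values, made in a way not given in the sources used here, which matched the scanner values (r of 0.9997 to 1.0 per array, slopes 0.94 to 1.05) with column medians of 7.03; how it was centred is unknown. It served as an alternative. In limma it gave the same counts as quantile normalization (4299 genes, 2 members and 9 other dopamine genes), so the 2 settings are not separate checks.

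Spots marked as outliers were left out (68 to 129 per array), spots of a probe averaged in log2, and each array's 75th percentile subtracted. A probe entered if well above background on 3 of 5 arrays of a group; a gene took its brightest entering probe. Probes were named through RefSeq (GRCm38.p6). Groups were compared on all 10 arrays with limma 3.58.1 in R 4.3.3 (Benjamini-Hochberg over all genes, threshold 0.05, two-sided), tested on simulated data. Members and lists were chosen with earlier results of these data known. All members are named, with up to 4 smallest-p genes of each list, the dopamine receptors, the 10 genes most like the members, Xist and Ddx3y; other names were chosen after their values were seen. Some items are not reported here.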

Additional observations from a re-analysis of the deposited data

Results flagged for a closer look

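In 130 groups of 5 arrays, taken from the genes the lists name, 7 held an array that stood apart from the other 4 by more than 0.71 of the group's range (Dixon's critical value), where chance gives about 1 in 20. None was a member gene; NC 2 and NC 4 stood high together there, and the measure looks at single arrays. Drd3 was -3.60 on NC 5 and -4.75 to -4.54 on the other NC arrays. On HE 4, the HE array with the highest summed thalamic level, 3 genes stood apart: Tcf7l2 at 1.77 (others -0.35 to -0.03), Ntng1 at 2.65 (others 1.22 to 1.63) and Hcrt at -1.37 (others -3.80 to -3.11). Hcrt also stood apart on NC 3, at 2.08 (others -1.79 to -0.83), an array low for the dopamine genes. Pomc was 1.61 on HE 2 (others -0.29 to 0.08), and Apoa2 was -7.37 on NC 3 (others -2.43 to -1.36).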

How the results depend on the processing

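The main counts were 4088 genes, 2 of 7 members and 10 of 45 other dopamine genes past limma's threshold, and each member stayed below 0 in every setting that could fit it. With slide as a fixed block the counts were 205, 0 and 1, on slide 2 alone 0, 0 and 0 (7078, 7 and 24 at an unadjusted p under 0.05), on the high-Xist arrays 77, 0 and 1, with slide and the Xist pattern together 3, 0 and 0 (2887, 1 and 9 unadjusted), without NC 2 and NC 4 1651, 0 and 1, and after normexp correction 8879, 7 and 19. Without NC 1, NC 2 and NC 4 they were 1921, 2 and 8. The Xist pattern as a covariate or no filter on dim probes left 1 member, and an intensity trend with a robust prior gave 4. Leaving out 1 array at a time gave 1979 to 4213 genes, 1 to 5 members and 2 to 15 other dopamine genes. The causes were not tested, and nothing is read from the counts of members, which were chosen by their NC values. The median member SD in HE, 0.361, is that of Foxa2, hence of background readings (0.328 over the other 6 genes); the median became 0.194 with normexp, 0.228 with quantile normalization and 0.217 in the value table. After normexp, which moved the median of all genes to -0.29, several signs turned. They included those of Gfra2 (-0.26), Phox2a (-1.45), Drd3 (-0.91), Drd4 (-1.06), Drd5 (-0.77) and Slc22a3 (-1.33). Coa3 (0.08), Immt (0.05) and Pbrm1 (0.04) turned to above 0. Signs also turned in other settings, such as Phox2a (-0.49), Drd4 (-1.52) and Drd5 (-0.58) with slide as a block. Calb1 turned (-0.10) with slide and the Xist pattern. Drd4 kept its sign in 14 of 27 settings, and Drd5 and Pnmt in 18 of 27. Replicate numbers did not pair the samples (correlations of deviations -0.08 to 0.13), and with the replicate number as a block 1 member and 6 other dopamine genes passed. Ret and En1 were limited by signal over background.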
